A study of Mus musculus with 28 samples.

Results

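Posterior mesoderm is the cell population that lies between early mesoderm and the allantois in this embryoid body (EB) series. Its members were the cells that the deposited table assigns to that type in the libraries of days 3.5 to 5. There were 3428 of them, of 31596 annotated cells in the whole series and 27135 cells in the 12 libraries compared. EBs are aggregates of differentiating mouse embryonic stem cells. All groups came from 1 stem cell line that carries Runx1Venus and a degron-tagged, mCherry-labelled Eomes, which encodes a T-box factor active in the early streak. All were grown without serum and, from day 2, with VEGF, BMP4 and Activin A. WT EBs were given DMSO, and Eomes-KD EBs 100 nM dTAG-13, the compound that removes the tagged EOMES protein, between days 3 and 4, so that the libraries of days 4.5 and 5 were made after its addition had ended. Per condition, 2 libraries were made for each of days 3.5 and 4, and 1 for each of days 4.5 and 5. The libraries came from 2 differentiation experiments: experiment 1 gave days 3.5, 4 and 4.5, and experiment 2 gave days 3.5, 4 and 5.

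In the mouse embryo, posterior mesoderm leaves the posterior end of the primitive streak. It feeds the allantois, the bud that joins the embryo to the chorion and later forms the umbilical vessels, and other extraembryonic mesoderm. Lateral plate, intermediate and paraxial mesoderm lie side by side in the embryo proper, and they give rise to body wall and heart, to kidney and gonad, and to somites. The defining markers of the type (Cdx2, Hoxb1 and T) could not be checked, because gene values were not analysed here, and the loss of EOMES was not checked for the same reason. The name was therefore set beside a different measure, the label that each cell received from its nearest cells in a gastrulation atlas. No atlas label has the name posterior mesoderm. Of the 3428 cells, 66.3% had the label ExE mesoderm, the mesoderm of the membranes outside the embryo, and in an extended version of the atlas 70.1% had the label lateral plate mesoderm. Only 24 cells carried a label of the caudal list (caudal epiblast and somitic mesoderm) in the first atlas.

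Total RNA counts per library ranged from 7262460 to 70753971, and the median per cell from 8207 to 23017. At days 3.5 and 4 the median per cell was higher in experiment 1 than in experiment 2 in both conditions, while the library with the highest total was of experiment 2. Across all libraries 1218 cells (3.85%) shared a barcode with a cell of another library. Among posterior mesoderm cells 130 did so, and 8 of these shared it with another posterior mesoderm cell. The highest doublet score of a posterior mesoderm cell was 1.25. Shares are given with 95% Wilson intervals and ratios with 95% exact intervals. Both hold counting error only, not the spread between libraries. The 2 libraries of a group at days 3.5 and 4 were separate differentiations of 1 line, so p-values measure the spread between these libraries.

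Posterior mesoderm was a transient population of day 4. None of 4461 cells at day 3 belonged to it, a count that allows a share of up to 0.0672%. At day 4 there were 3191 of the 3428 cells (93.1%), and Eomes-KD libraries held 2864 cells (83.5%) against 564 in WT.

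At day 3.5, WT libraries had 9 cells (0.368%, 0.194 to 0.699) in experiment 1 and 34 cells (0.460%, 0.329 to 0.642) in experiment 2. Eomes-KD libraries of that day had 48 cells (2.56%, 1.94 to 3.38) and 53 cells (1.99%, 1.52 to 2.59). Both Eomes-KD shares lay above both WT shares. At day 4, the WT share was 8.25% (6.94 to 9.78, 119 cells) in experiment 1 and 14.1% (12.9 to 15.5, 398 cells) in experiment 2. The Eomes-KD share was 43.4% (40.9 to 46.0, 631 cells) and 68.9% (67.2 to 70.5, 2043 cells). The groups again did not overlap, and most cells of the Eomes-KD library of experiment 2 were of this type. By day 4.5 the type had nearly gone, with 3 cells (0.674%, 0.230 to 1.96) in WT and 68 cells (3.95%, 3.13 to 4.98) in Eomes-KD. At day 5, WT had 1 cell (0.135%, 0.0239 to 0.762) and Eomes-KD 21 cells (1.78%, 1.17 to 2.71).

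**Figure D1:**
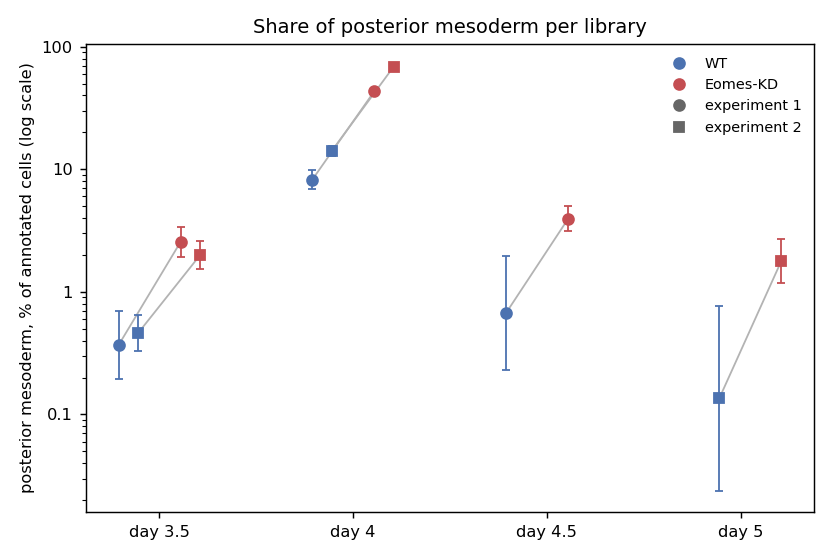
Posterior mesoderm as a percent of annotated cells (log axis) by day, with 1 point per library, circles for experiment 1, squares for experiment 2, bars for 95% Wilson intervals and a grey line joining WT and Eomes-KD of the same day and experiment. Every line rises from WT to Eomes-KD, with the highest values at day 4 (43.4% and 68.9%).

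Within each pair of the same day and experiment, the Eomes-KD share was the higher one in 6 of 6 pairs. The ratio of Eomes-KD to WT was 6.95 (95% exact interval 3.37 to 16.1) and 4.33 (2.76 to 6.86) at day 3.5, and 5.27 (4.32 to 6.46) and 4.88 (4.38 to 5.44) at day 4. At days 4.5 and 5, where WT had 3 cells and 1 cell, the ratios were 5.86 (1.92 to 29.1) and 13.2 (2.12 to 545). Over all days the share was 2.49 ± 0.40 (SE, 6 against 6 libraries) higher on the log2 scale by edgeR's quasi-likelihood test, with an adjusted p of 2.16e-05. That test called 8 of 12 cell types in either direction (66.7%) and 3 of 12 as higher in Eomes-KD (25%), and posterior mesoderm had the largest rise of these 3. By day, the rise was 2.42 ± 0.55 at day 3.5 (edgeR adjusted p = 0.0155, where 4 of 8 types were called, 50%) and 2.33 ± 0.51 at day 4 (adjusted p = 0.0283, 2 of 12 types, 16.7%). Days 4.5 and 5 had 1 library per condition, so their errors come from the spread at days 3.5 and 4 alone. At day 4.5 it was 2.54 ± 0.90 (edgeR adjusted p = 0.143) with 0 of 12 types called (0%), 3 types at an unadjusted p under 0.05 and 1 called by DESeq2. At day 5 it was 3.67 ± 1.10 (edgeR adjusted p = 0.0772) with 0 of 10 types called (0%), 2 types at an unadjusted p under 0.05 and 1 by DESeq2. A difference of the effect between days was not detected by edgeR's interaction of day and condition (adjusted p = 0.996), which rests on the same spread.

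The calls within single days rested on few libraries and on the scaling. With TMM factors the edgeR adjusted p was 0.121 at day 3.5 and 0.0957 at day 4. Without WT experiment 1, WT experiment 2 or Eomes-KD experiment 2 of its own day, the edgeR adjusted p at day 3.5 was 0.127, 0.0819 and 0.0593. At day 4 it was 0.144, 0.0841 and 0.0793 without WT experiment 1, WT experiment 2 or Eomes-KD experiment 2 of that day, and 0.0673 without either WT library of day 3.5, which shares in the estimate of the spread. With the experiment as a replicate block, the adjusted p was 0.00109 at day 3.5 and 0.00131 at day 4, where 7 of 12 types were then called. Numbers of cells per culture were not analysed here, so more posterior mesoderm and fewer cells of other types cannot be told apart from these shares.

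A narrower denominator leaves the other types out. The study associates an early mesoderm type, posterior mesoderm, allantois precursor and allantois with one allantois trajectory, on these same libraries. That the early type is the EOi early mesoderm of the table was assumed here. These 4 types, called the path, took up 13.2% to 49.4% of annotated cells in WT libraries and 69.4% to 85.7% in Eomes-KD libraries. At day 3.5 it was almost all EOi early mesoderm, and posterior mesoderm was 2.80% and 2.54% of it in WT and 3.69% and 2.60% in Eomes-KD. At day 4 posterior mesoderm was its main member in 3 of 4 libraries. Its share of the path was 41.9% in WT and 57.8% in Eomes-KD in experiment 1, and 62.4% in WT and 80.3% in Eomes-KD in experiment 2. Allantois precursor took up 51.8% of the path in the WT library of experiment 1, against 36.4% in Eomes-KD. In experiment 2 it took up 26.0% and 11.6%. At days 4.5 and 5 the path was mostly allantois precursor and allantois, and posterior mesoderm was 1.96% and 0.274% of it in WT and 5.17% and 2.27% in Eomes-KD.

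**Figure D2:**
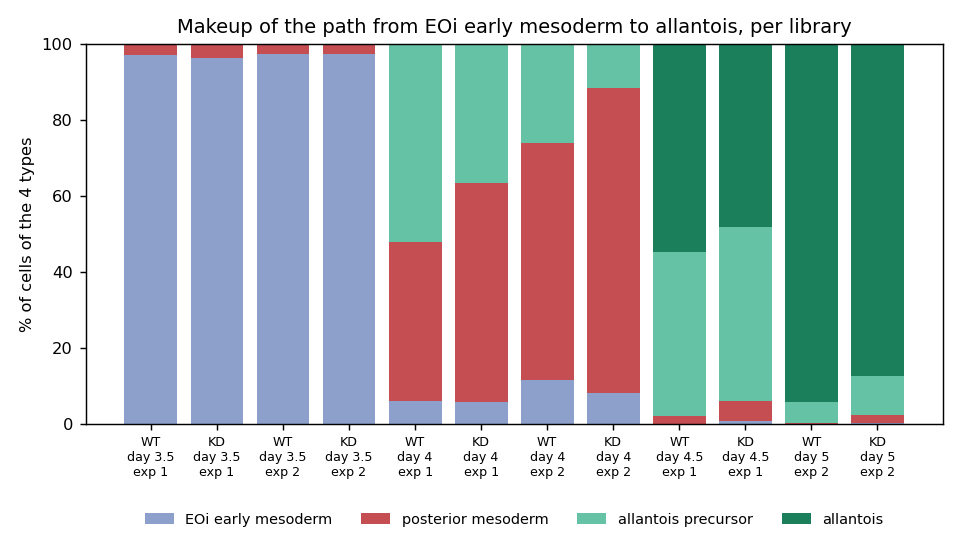
Percent of the 4 types of the path in each of 12 libraries, as stacked bars that add up to 100 (KD is Eomes-KD). The red segment is posterior mesoderm, which is thin at day 3.5, takes up 41.9% to 80.3% at day 4 and is thin again at days 4.5 and 5.

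The Eomes-KD value was again above its WT pair in 6 of 6 pairs, but by much less than among all cells. The ratio was 1.32 (0.641 to 3.06) and 1.02 (0.653 to 1.62) at day 3.5, 1.38 (1.13 to 1.69) and 1.29 (1.16 to 1.44) at day 4, 2.64 (0.865 to 13.1) at day 4.5 and 8.28 (1.33 to 342) at day 5. These intervals hold counting error of cells only, so they do not test the conditions. Averaged over days, the share of the path was 5.65 percentage points higher in Eomes-KD (14.3% against 19.9%). An exact two-sided permutation test with labels exchanged within days gave p = 0.153 (6 against 6 libraries, 144 arrangements, smallest p 0.0139). With labels exchanged only between the WT and Eomes-KD library of a pair, a paired analysis, the exact permutation p was 0.0313, the smallest that 64 arrangements can give. When the lower-count cells of each library were left out (cells above the median RNA count kept), the exact permutation p within days was 0.0417 for a difference of 5.75 points. The path without EOi early mesoderm did not pass (5.50 points, exact permutation p = 0.333). None of the 12 tests leaving out 1 library passed (exact permutation p = 0.111 to 0.569). Leaving out either library of day 4.5 removed that whole day, since 1 condition alone was left. The same held for day 5, and on each of these days both choices gave the same test (5 against 5 libraries).

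Posterior mesoderm was joined from 2 of the 18 clusters, and these differed in what they resembled. Cluster 4 held 1976 cells (57.6%) and cluster 13 held 1452 (42.4%). Cluster 4 lay farther along the map of the cells toward allantois precursor, at median UMAP coordinates of 1.54 and 3.59, and cluster 13 at 0.372 and 2.08. UMAP distances have no unit and are given only as a description. Atlas label scores, the fraction of nearest atlas cells behind a label, had a median of 0.80 in cluster 4 and 0.60 in cluster 13. The median RNA count was 13405 and 10055. Of cluster 4, 65.1% of cells were nearest to E8.0 atlas cells, against 41.1% of cluster 13. Intermediate mesoderm cells of the first atlas lay in cluster 13 in 90.4% of cases, nascent mesoderm cells in 98.0% and all 22 somitic mesoderm cells, whereas 24.9% of ExE mesoderm cells did. The type was clustered on these same cells, so these differences between clusters carry no test.

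At day 3.5, cluster 13 held 94.1% of 34 cells in WT experiment 2, 50% of 48 cells in Eomes-KD experiment 1 and 69.8% of 53 cells in Eomes-KD experiment 2. In WT experiment 1, 5 of 9 cells were. At day 4 cluster 13 took up 32.8% in WT and 30.7% in Eomes-KD in experiment 1, and 45.7% and 44.1% in experiment 2. The experiments thus differed by more than the conditions. On the log2 scale cluster 13 was 0.10 ± 0.29 (SE) lower in Eomes-KD (edgeR adjusted p = 0.852, 2 against 2 libraries), and edgeR called 0 of 2 clusters (0%), none at an unadjusted p under 0.05 and none by DESeq2.

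**Figure D3:**
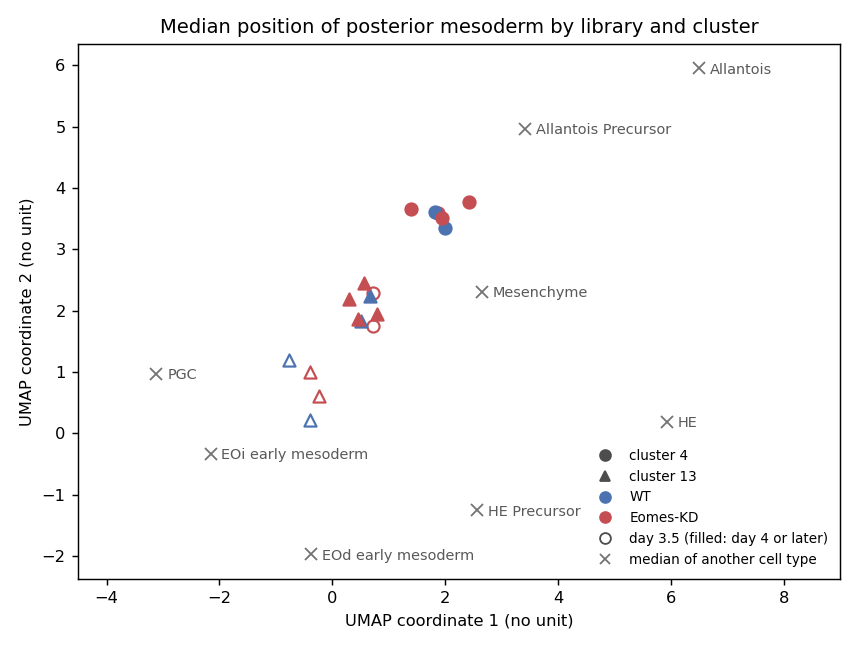
Median UMAP position (no unit) of posterior mesoderm cells in each library, for cluster 4 (circles) and cluster 13 (triangles) wherever a library had 5 or more such cells, in WT (blue) and Eomes-KD (red), with day 3.5 open and later days filled. Crosses mark the medians of other cell types. Cluster 13 of day 3.5 lies nearest to EOi early mesoderm, cluster 4 of day 3.5 lies beside cluster 13 of later days, and cluster 4 of later days lies toward allantois precursor.

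Neighbours in the map showed the same 2 sides. The map and the clusters were both computed from the same data of these cells, so this restates the clustering and is no separate evidence. For each posterior mesoderm cell the 15 nearest cells of the 12 libraries were taken, and 78.2% of these neighbours were posterior mesoderm too. Among the others around cluster 4, 38.3% were allantois precursor, 29.2% mesenchyme and 15.1% EOi early mesoderm. Around cluster 13, 57.6% were EOi early mesoderm, 17.8% mesenchyme and 2.20% allantois precursor. In the day 4 libraries, mesenchyme made up 39.4% and 34.8% of the other neighbours in WT and 32.6% and 17.1% in Eomes-KD. Allantois precursor made up 20.3% and 19.6% of them in WT and 29.3% and 26.0% in Eomes-KD. At day 3.5, EOi early mesoderm made up 58.3% of the other neighbours in WT experiment 2, 73.4% in Eomes-KD experiment 1 and 78.1% in Eomes-KD experiment 2. Most neighbours were of another type for 67.6%, 54.2% and 64.2% of cells in these libraries. At day 4 that applied to 32.8% and 20.6% of cells in WT and to 20.9% and 7.54% in Eomes-KD. More posterior mesoderm cells in a library give more neighbours of that type, so these shares move with cell number as well. From the median of all posterior mesoderm cells, the nearest centre of another type was mesenchyme (distance 1.78), followed by allantois precursor (2.95), HE precursor (4.65), PGC (4.73) and EOi early mesoderm (4.76), and allantois lay at 6.10.

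The atlas labels changed with the day. At day 3.5 the main label was mixed mesoderm, an atlas name for mesoderm without a single resolved fate, with 55.6% of 9 cells and 41.2% of 34 cells in WT and 60.4% and 43.4% in Eomes-KD. Nascent mesoderm, the cells that have just left the streak, held 11.1% and 29.4% in WT and 12.5% and 20.8% in Eomes-KD. ExE mesoderm held 33.3% and 17.6% in WT and 22.9% and 30.2% in Eomes-KD. The WT and Eomes-KD values overlapped for each of these 3 labels. At days 4.5 and 5, the Eomes-KD cells were mainly ExE mesoderm, with 67.6% of 68 cells and 71.4% of 21 cells.

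At day 4, ExE mesoderm took up 46.2% (37.5 to 55.2) of posterior mesoderm in WT experiment 1 and 73.6% (69.1 to 77.7) in WT experiment 2. In Eomes-KD it took up 77.3% (73.9 to 80.4) and 65.5% (63.4 to 67.5). The 2 experiments went in opposite directions. Mixed mesoderm was 36.1% and 16.8% in WT and 12.8% and 6.95% in Eomes-KD, so it was lower in Eomes-KD in both pairs and the groups did not overlap. Nascent mesoderm did not overlap either, with 5.88% and 3.27% in WT and 1.74% and 2.01% in Eomes-KD. Intermediate mesoderm, the precursor of kidney and gonad, had 0 of 119 cells in WT experiment 1, which allows up to 2.52%, and 9 of 398 cells (2.26%, 1.19 to 4.24) in WT experiment 2. It had 32 of 631 cells (5.07%, 3.61 to 7.07) and 437 of 2043 cells (21.4%, 19.7 to 23.2) in Eomes-KD. Both Eomes-KD shares lay above both WT shares, and they differed from each other more than the lower one did from WT. Taking the floor of 3 cells for the WT library of experiment 1, the Eomes-KD share was 2.01-fold higher there. The 95% exact interval of that ratio, from the 0 cells counted, began at 1.54. In experiment 2 the Eomes-KD share was 9.46-fold higher (95% exact interval 4.94 to 20.8). Somitic mesoderm, the source of vertebrae and skeletal muscle, was seen in 22 cells, all of Eomes-KD experiment 2 at day 4. Mesenchyme labels were few, with 7 cells (5.88%) and 3 cells (0.754%) in WT. In Eomes-KD they were 3 cells (0.475%) and 3 cells (0.147%), so the Eomes-KD shares lay below both WT shares.

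Tests of the makeup could use day 4 alone, the only day on which every library had 20 or more posterior mesoderm cells. Of 8 labels tested at 2 against 2 libraries, edgeR called 0 (0%), with 2 at an unadjusted p under 0.05 (intermediate mesoderm and mesenchyme), and DESeq2 called 0. Intermediate mesoderm was 3.18 ± 1.29 higher on the log2 scale (edgeR adjusted p = 0.199) and ExE mesoderm 0.25 ± 0.75 higher (adjusted p = 0.752). Mixed mesoderm was 1.41 ± 0.85 lower (log2 difference -1.41, adjusted p = 0.267). The allantois label held 2 cells (1.68%) and 7 cells (1.76%) in WT, and 2 cells (0.317%) and 11 cells (0.538%) in Eomes-KD. Its groups did not overlap, with a log2 difference of -1.90 ± 0.96 (edgeR adjusted p = 0.238). Full separation was thus seen for intermediate, mixed, nascent, mesenchyme and allantois labels, and not for ExE mesoderm, haematoendothelial progenitors or somitic mesoderm. Any full separation of 2 against 2 libraries has an exact permutation p of 0.333, so it sets no single label apart. A fit that took the experiment as a replicate block called 3 of 8 labels (37.5%) by edgeR. These were intermediate mesoderm (3.39 ± 0.56, adjusted p = 0.00242), mixed mesoderm (-1.38 ± 0.36, adjusted p = 0.0129) and mesenchyme (-3.02 ± 0.77, adjusted p = 0.0129). That fit leaves 1 residual degree of freedom per label and borrows the spread across 8 labels. Leaving out 1 library, mixed mesoderm ranged from -1.91 (without Eomes-KD experiment 1) to -0.774 (without WT experiment 1). Without Eomes-KD experiment 2, the library that holds 89.0% of the intermediate mesoderm cells of this type, the rise was 1.77 on the log2 scale (edgeR adjusted p = 0.512). With day 3.5 added, where intermediate mesoderm was 4 of 34 cells in WT experiment 2 and 1 of 53 in its Eomes-KD pair, it was 1.52 ± 1.51 (adjusted p = 0.459).

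**Figure D4:**
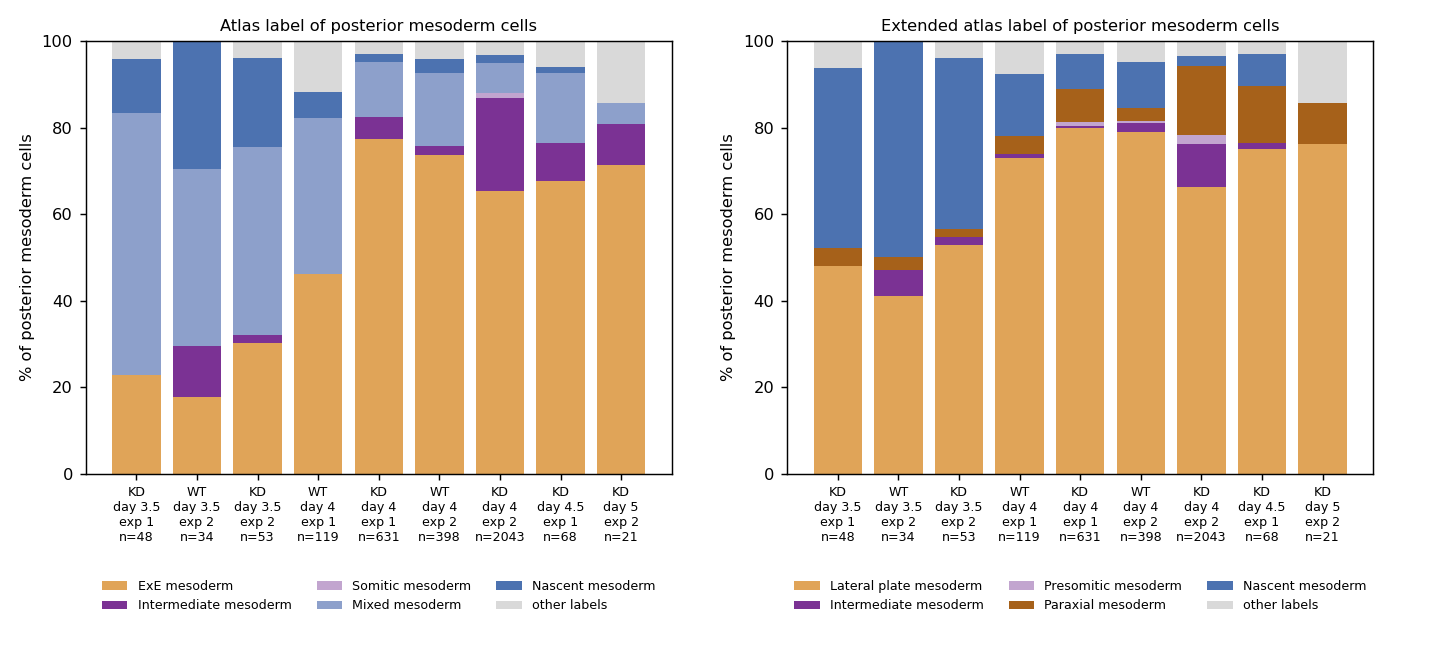
Labels of posterior mesoderm cells in the first atlas (left) and in the extended atlas (right), as stacked percent per library, for the 9 libraries with 20 or more such cells, whose number is under each bar (KD is Eomes-KD). Nascent and mixed labels (blue) are widest at day 3.5, and the intermediate segment (purple, left) reaches 21.4% in Eomes-KD of experiment 2 at day 4.

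The extended atlas names the same cells differently. Of the ExE mesoderm cells, 97.2% were lateral plate mesoderm in the extended atlas, so the division between extraembryonic and embryonic labels in this type depends on the atlas. Of the 491 intermediate mesoderm cells, 60.1% were paraxial mesoderm, the precursor of somites, 30.1% intermediate mesoderm and 6.72% presomitic mesoderm there. All 22 somitic mesoderm cells were intermediate mesoderm in the extended atlas. Mixed mesoderm was divided into nascent (35.5%), lateral plate (35.0%) and paraxial mesoderm (18.5%).

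Paraxial mesoderm in the extended atlas took up 4.20% (5 cells) and 3.02% (12 cells) of WT posterior mesoderm at day 4, and 7.45% (47 cells) and 16.1% (329 cells) in Eomes-KD. The groups did not overlap. The ratio was 1.77 (0.708 to 5.71) in experiment 1 and 5.34 (3.02 to 10.4) in experiment 2. Intermediate mesoderm in this atlas had 1 and 8 cells in WT and 3 and 206 cells in Eomes-KD, which is 0.840% and 2.01% against 0.475% and 10.1%, so the pairs went in opposite directions. Lateral plate mesoderm was 73.1% and 79.1% in WT and 80.0% and 66.3% in Eomes-KD, again in opposite directions. Nascent mesoderm was 14.3% and 10.6% in WT and 8.24% and 2.10% in Eomes-KD, lower in both pairs. The allantois label of this atlas was lower in both pairs too, with differences of -1.57 and -2.09 points (Eomes-KD minus WT). EdgeR called 0 of 8 extended labels at day 4 (0%), none at an unadjusted p under 0.05 and none by DESeq2. Paraxial mesoderm was 1.75 ± 0.68 higher on the log2 scale (adjusted p = 0.224), and with the experiment as a replicate block 1.79 ± 0.72 (adjusted p = 0.159). Leaving out Eomes-KD experiment 1 gave 3 calls, of paraxial mesoderm (2.29, adjusted p = 0.000765), intermediate mesoderm (2.52, adjusted p = 0.00166) and nascent mesoderm (-2.43, adjusted p = 0.000765), with the remaining Eomes-KD library assumed to vary as WT did.

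Several of these labels lay mostly in posterior mesoderm. Of all intermediate mesoderm cells of the 12 libraries, 73.3% of 670 were posterior mesoderm and 21.9% EOi early mesoderm. For somitic mesoderm it was 22 of 25 cells, for extended paraxial mesoderm 72.1% of 566 and for presomitic mesoderm 75% of 64. Extended intermediate mesoderm was divided between EOi early mesoderm (49.3% of 491 cells) and posterior mesoderm (45.2%). ExE mesoderm was spread more widely, with 49.9% of 4558 cells in posterior mesoderm and 22.4% in allantois precursor. As a share of all annotated cells at day 4, intermediate mesoderm was 0.208% and 0.568% in WT and 2.82% and 16.8% in Eomes-KD. Within EOi early mesoderm at day 4 it was 1 of 17 (5.88%) and 3 of 74 cells (4.05%) in WT, and 6 of 62 (9.68%) and 52 of 205 cells (25.4%) in Eomes-KD. In all 4 libraries this was above the share within posterior mesoderm, so the label was not particular to that type. In mesenchyme it was 2 of 478 and 3 of 1041 cells in WT and 1 of 84 and 1 of 64 in Eomes-KD. At day 3.5 the Eomes-KD library of experiment 2 held 59 intermediate mesoderm cells, of which 1 was posterior mesoderm.

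Within cluster 13, the intermediate and paraxial labels differed more in experiment 2, and ExE and mixed mesoderm more in experiment 1. In experiment 2, intermediate mesoderm took up 4.95% of 182 cells in WT and 44% of 900 in Eomes-KD, and extended paraxial mesoderm 6.04% and 33.2%. In experiment 1, there were 0 such cells of 39 in WT and 13.4% of 194 in Eomes-KD, and extended paraxial mesoderm 10.3% and 23.2%. ExE mesoderm of cluster 13 was 10.3% in WT and 46.4% in Eomes-KD in experiment 1, and 57.1% and 37.1% in experiment 2. Mixed mesoderm was 71.8% and 34.0%, and 29.1% and 11.1%. Cluster 4 held few intermediate mesoderm cells, with 0 of 80 and 0 of 216 intermediate mesoderm cells in WT and 1.37% and 3.59% in Eomes-KD.

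Intermediate mesoderm cells had a median label score of 0.56, below the 0.80 of ExE mesoderm and above the 0.52 of mixed and of nascent mesoderm, and 48.1% of them reached 0.6. Counting only cells with a score of 0.6 or more, the rise of intermediate mesoderm at day 4 was 4.80 ± 1.54 on the log2 scale (edgeR adjusted p = 0.0550). The median RNA count was 9935 in intermediate mesoderm cells and 12405 in ExE mesoderm cells, and 89.0% and 58.9% of them came from Eomes-KD experiment 2 at day 4, one of the shallower libraries. The part of depth in the label was not tested, since counts per gene were not analysed here and cells could not be thinned to 1 depth. With cells above the median RNA count alone, the rise was 3.02 ± 1.33 (adjusted p = 0.149).

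By the lists of labels, the early list (epiblast, primitive streak, caudal epiblast and nascent mesoderm) was 5.88% and 3.27% of WT posterior mesoderm at day 4 and 1.74% and 2.15% in Eomes-KD. The extraembryonic list (ExE mesoderm, allantois, mesenchyme and the membranes) was 53.8% and 76.1% in WT and 78.1% and 66.2% in Eomes-KD. Blood and endothelium labels were 4.20% and 1.51% in WT and 1.74% and 1.96% in Eomes-KD. Caudal labels were 0 of 119 and 0 of 398 in WT, and 0 of 631 and 24 of 2043 in Eomes-KD. The list of other embryonic mesoderm labels was 36.1% and 19.1% in WT and 17.9% and 28.3% in Eomes-KD. In this atlas only the early list had groups that did not overlap. With extended labels the groups did not overlap in 4 lists, all but blood and endothelium, and caudal labels were 0% and 0.503% in WT and 0.951% and 2.06% in Eomes-KD. None of the 5 lists could pass, since 6 arrangements allow no p below 0.333 (exact permutation test, two-sided, 2 against 2 libraries), and none had an unadjusted p under 0.05.

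Nearest atlas stages rose between days 3.5 and 4. At day 3.5, E7.25 was the main stage, with 66.7% and 61.8% in WT and 70.8% and 56.6% in Eomes-KD. At day 4, E7.25 still held 47.1% (38.3 to 56.0) of posterior mesoderm in WT experiment 1 and 17.1% (13.7 to 21.1) in WT experiment 2. In Eomes-KD it held 12.8% (10.4 to 15.7) and 3.82% (3.07 to 4.74). E8.0 held 10.9% (6.50 to 17.8) and 47.7% (42.9 to 52.6) in WT, and 63.9% (60.0 to 67.5) and 60.4% (58.3 to 62.5) in Eomes-KD. Both Eomes-KD libraries were above both WT libraries in E8.0 and below both in E7.25. The mean stage was 7.46 and 7.78 embryonic days in WT and 7.83 and 7.85 in Eomes-KD. The WT library of experiment 1 stood apart, and it also had the lowest median atlas label score of the 4 (0.60). Within ExE mesoderm cells alone, E8.0 held 23.6% of 55 and 60.8% of 293 cells in WT, and 79.5% of 488 and 72.9% of 1338 cells in Eomes-KD. A later stage in Eomes-KD was not particular to posterior mesoderm. The mean stage of mesenchyme was 7.44 and 7.69 in WT and 7.78 and 7.81 in Eomes-KD. For EOi early mesoderm it was 7.22 and 7.39 against 7.43 and 7.58, and for allantois precursor 7.94 and 8.10 against 8.10 and 8.11. Over all cells of these libraries the median stage was 7.5 and 7.75 in WT and 8 and 8 in Eomes-KD.

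Of 6 stages, edgeR called 0 at day 4 (0%), with 1 (E7.0) at an unadjusted p under 0.05, and DESeq2 called 0. E8.0 was 1.06 ± 1.01 higher on the log2 scale (adjusted p = 0.471) and E7.25 had a difference of -1.94 ± 1.04 (adjusted p = 0.264). Leaving out 1 library, E8.0 ranged from 0.380 (without WT experiment 1) to 2.51 (without WT experiment 2), and E7.25 from -3.05 (without Eomes-KD experiment 1) to -1.07 (without WT experiment 1). With the experiment as a replicate block the values were 1.37 ± 0.80 (adjusted p = 0.273) and -2.02 ± 0.77 (adjusted p = 0.118). At days 4.5 and 5, E8.0 held 38.2% of 68 and 28.6% of 21 Eomes-KD cells, and E8.25 2.94% and 19.0%.

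**Figure D5:**
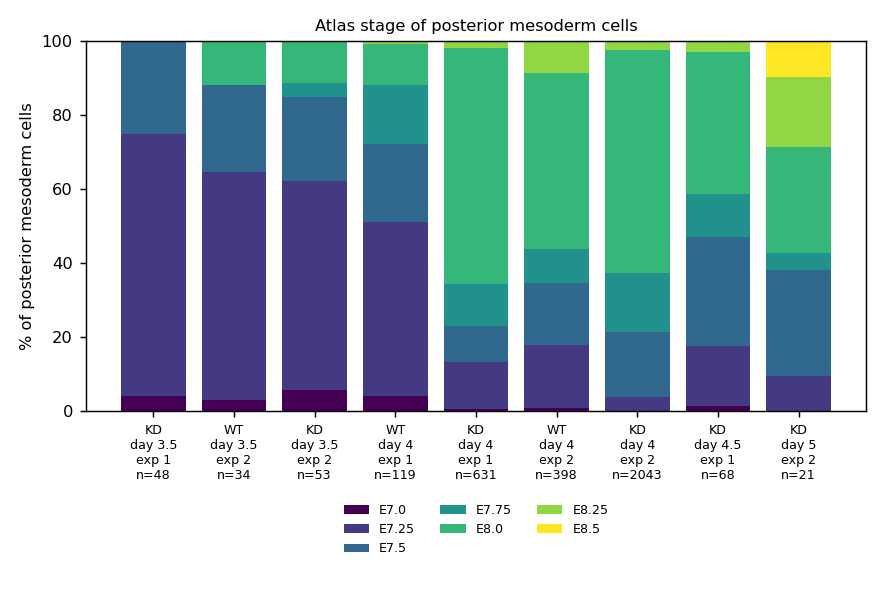
Nearest atlas stage of posterior mesoderm cells as stacked percent per library, for the 9 libraries with 20 or more such cells (KD is Eomes-KD). The E7.25 segment shrinks from 56.6% to 70.8% at day 3.5 to 3.82% to 47.1% at day 4, and E8.0 reaches 63.9% and 60.4% in Eomes-KD at day 4.

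Single atlas cells were used many times. The 3428 cells had 682 distinct nearest atlas cells, of which 339 were used once and the most used 158 times (4.61%). WT cells used 206 of them and Eomes-KD cells used 609, and 133 were in both sets, which is 64.6% of the WT set and 21.8% of the Eomes-KD set. The sets differ in size with the number of cells (564 and 2864). On these shared atlas cells lay 83.5% of the WT posterior mesoderm and 52.8% of the Eomes-KD posterior mesoderm. Within the day 4 pair of experiment 2, WT and Eomes-KD shared 94 atlas cells, which held 78.9% of 398 and 48.9% of 2043 cells. Within the day 4 pair of experiment 1 they shared 25, which held 70.6% of 119 and 17.6% of 631 cells. EOi early mesoderm shared 212 of the 682 atlas cells (31.1% of the posterior mesoderm set and 25.6% of its own set of 827), mesenchyme 195 (28.6% and 36.2% of its 539) and allantois precursor 152 (22.3% and 37.0% of its 411). Allantois shared 48.

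Of 11 measures per cell, none passed at day 4, where 6 arrangements allow no exact permutation p below 0.333. Atlas label scores had medians of 0.60 and 0.68 in WT and 0.80 and 0.72 in Eomes-KD, and over all cells of the same libraries 0.68 and 0.72 against 0.76 and 0.72. Extended label scores had medians of 0.68 and 0.68 in WT and 0.80 and 0.72 in Eomes-KD. Stage scores were 0.40 and 0.40 in WT and 0.44 and 0.44 in Eomes-KD. Together with UMAP coordinate 2 (2.59 and 3.19 in WT, 3.28 and 3.21 in Eomes-KD), these were the 4 measures whose groups did not overlap. With day 3.5 added, each of these 4 had an exact permutation p of 0.0556, the smallest that 36 arrangements can give (4 against 4 libraries), and 0.153 after adjustment over 11 measures. At day 4 alone their exact permutation p was 0.333, which any full separation of 2 against 2 libraries gives. Over all cells of the day 4 libraries, UMAP coordinate 2 was 1.43 and 1.76 in WT and 3.31 and 3.03 in Eomes-KD. Extended label scores were 0.76 and 0.76 against 0.80 and 0.72, and stage scores 0.44 and 0.40 against 0.44 and 0.44.

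RNA counts per posterior mesoderm cell at day 4 had medians of 22891 and 10399 in WT and 18378 and 10296 in Eomes-KD, and followed the experiment more than the condition. The same held for all cells of these libraries, with 23017 and 11270 in WT and 18792 and 10528 in Eomes-KD. Mitochondrial reads had medians of 8.41% and 4.55% in WT and 8.24% and 5.51% in Eomes-KD. Ribosomal reads had medians of 11.7% and 9.26% in WT and 11.1% and 8.56% in Eomes-KD. Doublet scores were 0.28 and 0.20 in WT and 0.26 and 0.21 in Eomes-KD. Across cells within a day 4 library, RNA counts and atlas label score had Spearman's rho of 0.0116 to 0.220, where cells of a library are no replicates.

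Cells called PGC (primordial germ cells) from label transfer were set apart by the authors from whatever cluster they lay in. Of the 3504 cells in clusters 4 and 13, this removed 76 (2.17%). It was 4 of 123 cells (3.25%) and 26 of 424 (6.13%) in WT at day 4, and 8 of 639 (1.25%) and 31 of 2074 (1.49%) in Eomes-KD. Counting these cells as posterior mesoderm gave a rise of 2.43 ± 0.45 on the log2 scale over all days (edgeR adjusted p = 5.03e-05). A further 3 posterior mesoderm cells had the label PGC in the extended atlas.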

How the data were processed

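EBs of 1 stem cell line were profiled with single-nucleus multiome libraries, which read RNA and open chromatin (ATAC) of the same nucleus. Depth here is that of RNA, while clusters and UMAP came from both. Per the labels, the submitters' processing notes name Cell Ranger ARC 2.0.1 and the mm10 build. The authors removed low-quality cells and doublets (scds), assigned atlas labels by transfer from 2 versions of a gastrulation atlas, clustered the cells and joined clusters into 12 cell types. The deposited cell table holds RNA counts and genes detected per cell as counts, mitochondrial and ribosomal reads as percent, the atlas label scores as a fraction of nearest atlas cells, and doublet scores and UMAP coordinates as a score without a unit. Gene values were not analysed here, and cells could not be thinned to 1 depth. EOi and EOd are codes of the table for 2 early mesoderm types, whose letters the sources used here do not explain.

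Groups came from the sample labels, and the replicate and genotype columns of the table were not used. Cells were counted per library, and shares were tested across libraries, never across cells. The main test was edgeR 4.0.16 (quasi-likelihood, R 4.3.3) on cells per type with the annotated cells of a library as its size, for types with 10 or more cells, with Benjamini-Hochberg adjustment and a threshold of 0.05. Makeup within posterior mesoderm used labels, stages and clusters in the same way, with the posterior mesoderm cells of a library as its size, and needed 20 such cells in each library, which left day 4 alone. The rule for naming a label was 2% of a library with 20 or more cells or a passed test, which names 9 of 14 atlas labels and 8 of 17 extended labels. Somitic mesoderm, presomitic mesoderm, caudal epiblast and PGC fell short of it and are named all the same. Some labels that met it are given no value of their own. Shares of the path, lists and measures per cell were tested by exact two-sided permutation over libraries (scipy 1.17.1). Alternatives were TMM factors, DESeq2 1.42.0, no filter, the experiment as a replicate block, cells above the median RNA count, a label score of 0.6 or more, and leaving out each library. Another 2 were chosen after seeing the data, days 3.5 and 4 together and counting cells set apart as PGC. The experiments were differentiations done at different times with all samples of an experiment collected together, so their numbers pair the samples. The main tests took account of the day but not of this pairing, which only the replicate block used. The deviations of WT and Eomes-KD from their group means correlated at 0.538 (day 3.5) and 0.652 (day 4) over 12 types. The tests were tested on simulated data. Members, lists and tests were chosen with earlier results of these data known.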

Additional observations from a re-analysis of the deposited data

Results flagged for a closer look

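For 6 values of posterior mesoderm, both experiments moved one way at day 3.5 and the other way at day 4 (Eomes-KD minus WT). The difference between the days was not tested for any of them, and WT experiment 1 of day 3.5 rests on 9 cells. Mixed mesoderm was 3.54 percentage points higher on average at day 3.5 (4.86 and 2.22) and differed by -16.6 points at day 4. Stage E7.0 was 3.44 points higher at day 3.5 and differed by -2.22 points at day 4. Stage E8.0 differed by -5.78 points at day 3.5 (-11.1 and -0.444) and was 32.8 points higher at day 4 (52.9 and 12.7). The median RNA count per cell was 3572.25 higher at day 3.5 and differed by -2307.75 at day 4, and genes detected by 870.75 and -253.5. UMAP coordinate 1 was 0.315 higher at day 3.5 and differed by -0.23 at day 4. No group had 4 or more libraries, so single libraries could not be tested for standing apart.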

How the results depend on the processing

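Of 372 alternative values, 334 were scored as the same. For a single result this means the same direction and side of the threshold. For a number of calls, which has no direction, it means an unchanged number. Lists and measures per cell could not pass in any setting, since the smallest p their exact permutation tests allow was 0.0556 to 0.5. Their side of the threshold was thus fixed in advance, and the 334 do not show robustness for them. The rise of posterior mesoderm over all days passed under all 18 alternatives (2.38 to 2.66 on the log2 scale). At day 3.5 it was 2.01 with TMM factors (edgeR adjusted p = 0.121) and 2.23 to 2.60 leaving out 1 library. At day 4 it was 2.39 with TMM factors (adjusted p = 0.0957) and 1.95 to 2.77 leaving out 1 library. The cause was not tested. The share of the path passed with the replicate block (5.65 points) and with cells above the median RNA count (5.75 points). Its difference was 2.83 to 8.47 points leaving out 1 library.

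The number of types called changed by over 1.5 times at day 4 (2, against 4 by DESeq2, 7 with the replicate block and 5 with cells above the median RNA count, and 0 to 5 leaving out 1 library). At day 3.5 it was 4, against 0 to 5 leaving out 1 library. The replicate block called 3 atlas labels in place of 0, and 2 types in place of 0 at day 4.5 and 1 in place of 0 at day 5. The types it called at days 4.5 and 5 did not include posterior mesoderm. Apart from the atlas labels and the share of the path, the block changed no call on posterior mesoderm. Leaving out Eomes-KD experiment 1 of day 4 called 3 extended labels in place of 0.

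Values that turned direction were all below the threshold. Leaving out 1 library of day 4, ExE mesoderm ranged from -0.0441 (without WT experiment 1) to 0.627, lateral plate mesoderm from -0.23 to 0.0420 (0.000664 without WT experiment 2), extended intermediate mesoderm from -1.80 (without Eomes-KD experiment 2) to 2.66 and cluster 13 from -0.397 to 0.199 (0.122 without Eomes-KD experiment 1) on the log2 scale. The extraembryonic list ranged from -3.98 (without WT experiment 1) to 18.4 points, blood and endothelium from -2.35 to 0.343 (without WT experiment 1), and other embryonic mesoderm from -13.0 to 4.03 (without WT experiment 1; 0.726 without Eomes-KD experiment 1). The RNA count ranged from -8554 to 3938.5 (1733.25 without Eomes-KD experiment 2). Lateral plate mesoderm was 0.0290 with TMM factors and 0.0660 with libraries of 10 or more cells, and cluster 13 was 0.0189 with cells above the median RNA count. With extended labels the extraembryonic list differed by -1.81 and other embryonic mesoderm by 9.05 points. With day 3.5 added, blood and endothelium differed by 0.491 points and the RNA count by 632.25.

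The WT libraries of day 3.5 experiment 1, day 4.5 and day 5 had 9, 3 and 1 posterior mesoderm cells, and makeup tests had 2 libraries a group.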
